A study of Mus musculus with 272 samples.

Results

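The genes described here encode the nuclear subunits of respiratory complexes II to V and cytochrome c. They were chosen by symbol (Sdha to Sdhd, symbols starting with Uqcr, Cox4 to Cox8 or Atp5 without Atp5s and Atp5sl, and Cyc1 and Cycs), which gave 48 of the 15771 genes of the table. Complex II has 4 of them, complex III 9, complex IV 17 and complex V 17, and Cycs is cytochrome c. The study measured RNA in mouse germinal vesicle (GV) oocytes, metaphase II (MII) oocytes, zygotes, 2-cell, 4-cell and 8-cell embryos, morulae and blastocysts. Each stage has 4 transcriptome libraries from pools of 20 oocytes or embryos, and 3 sucrose gradients of about 100, each cut into 10 fractions after lysis with cycloheximide, which holds ribosomes on their transcripts. Values are CPM, a gene's reads scaled to the same total in every library and not to gene length, so levels are compared here within a gene and not between genes. All groups are untreated pools. Strain and age are not given in the sources used here, and nothing says that replicates came from separate collections, so p-values measure the spread between these samples only. The 2-cell transcriptome columns are lettered E to H, which match no sample's letter. Where a replicate is left out, E to H count as A to D in that order, an arbitrary match.

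In the inner mitochondrial membrane, complex II passes electrons from succinate to ubiquinone, complex III passes them on to cytochrome c, and complex IV uses them to reduce oxygen. The proton gradient built by complexes III and IV, together with complex I, drives ATP synthesis by complex V. All subunits of complex II and most of the others are nuclear genes translated by cytosolic ribosomes, while a few subunits of complexes III to V are made inside the mitochondrion, and oocytes and early embryos rely on this pathway for ATP.

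Depth was 11.2 to 24.3 M reads for transcriptomes and 0.0102 to 43.2 M for fractions. Reads were inferred from the CPM values, with the smallest value above 0 in a library taken as 1 read, and cover only genes of the table. The shallowest were fraction 1 of GV gradients A and B, with 0.0102 and 0.0231 M reads, where 1 read is worth up to 97.6 CPM. Fraction 1 was shallow in embryos too, with 0.337, 0.427 and 0.667 M reads in 2-cell gradients. Fraction 6 of 4-cell gradient A had 0.996 M reads, against 12.5 and 14.4 M in gradients B and C. Marker sums followed the labels. The 8 oocyte markers summed to 18575 to 21443 CPM in GV and to 7.28 to 12.9 CPM in blastocyst transcriptomes, and the 8 blastocyst markers to 13.8 to 20.1 and 2489 to 3002 CPM. Of 10 cumulus and granulosa cell markers 4 were in the table, and their sum was 39.4 to 44.7 CPM in GV, 59.8 to 68.9 in MII and 13.3 to 20.0 in blastocyst libraries, mostly Cyp19a1 in oocytes, with Amhr2 at 0 there. Their part in the results was not tested. All 48 genes passed the filter on low values in every comparison. Many have pseudogenes or close paralogs whose reads could be shared, and Atp5md had values identical to those of Gm35857, so levels of single genes are uncertain to that extent.

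The transcriptome comparison asks when these transcripts changed in level. The labels name poly(A) RNA as the molecule, so every level here is that of captured RNA. Their summed level fell from 6299 ± 391 CPM (SD, n = 4) in GV to 2395 ± 206 in MII oocytes, was 2348 ± 121 in zygotes and 3407 ± 248 in 2-cell embryos, and then reached 12372 ± 583 in 4-cell embryos and 21745 ± 2916 in blastocysts. A gene was called when limma's Benjamini-Hochberg adjusted p over all genes was under 0.05 and its change at least 1 on the log2(CPM + 1) scale, on which every change below is given. All stages entered 1 fit for each kind of comparison, so the SE and p of a gene rest on its spread over all stages. From GV to MII 37 of the 48 genes were called lower and 1 higher, where 34.5% of 14642 genes tested were called in either direction (9.11% higher and 25.3% lower). Their median change was -2.68, beside -0.11 over all genes. From 2-cell to 4-cell 38 were called higher and 3 lower, where 64.8% of all genes were called (31.8% higher and 32.9% lower), with a median of 2.20 beside 0.02. CPM is relative to the other captured RNA of a library. Less of a transcript, a lower capture of it and more of the other RNA thus cannot be told apart. In embryos of several cells, fewer cells of a type and less RNA per cell cannot be told apart either. No total amount is read from CPM.

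**Figure D1:**
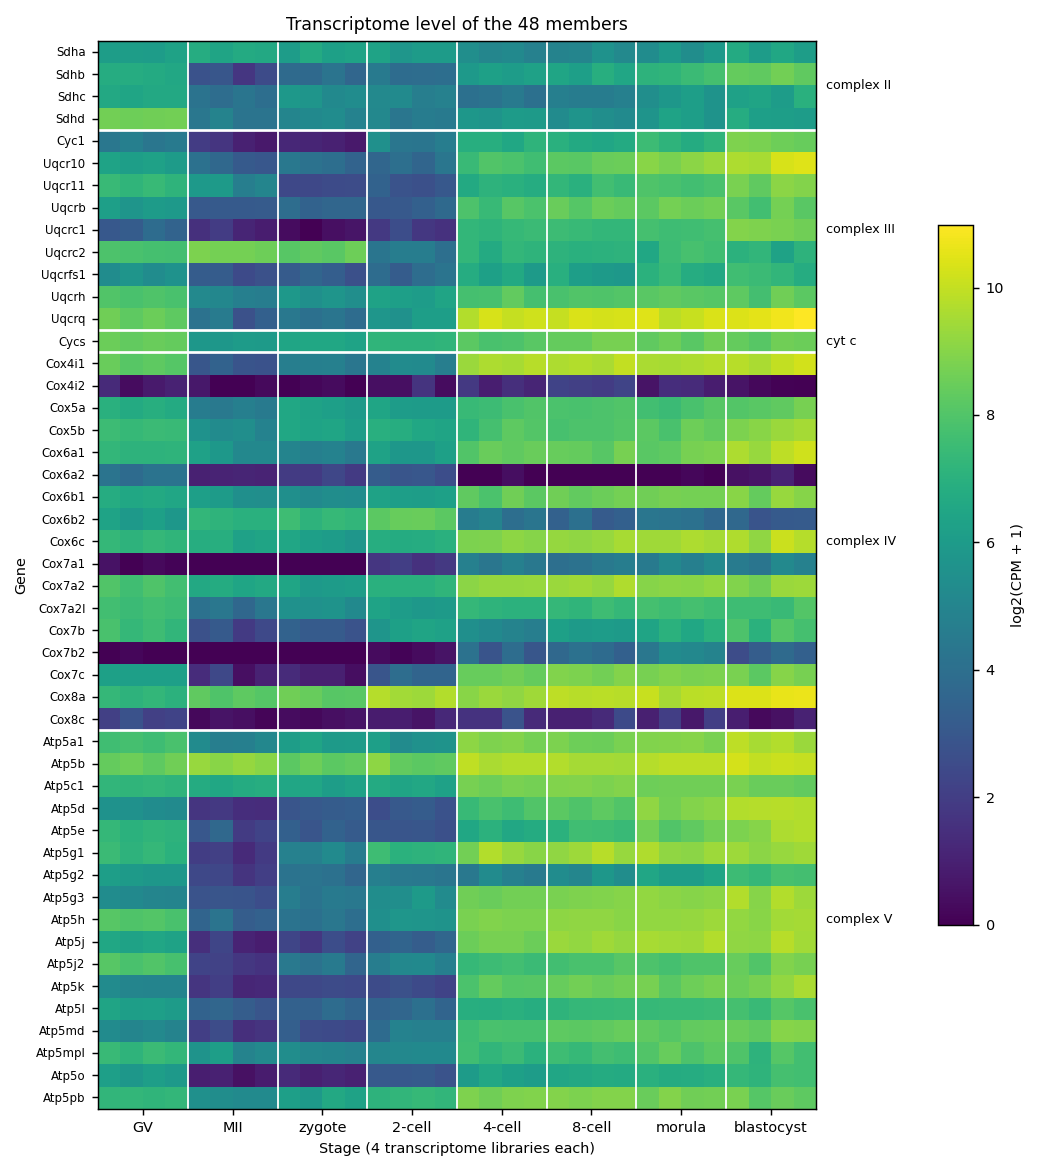
Heat map of log2(CPM + 1) for the 48 genes (rows, grouped by complex) in the 32 transcriptome libraries (columns, 4 per stage). Most rows darken in MII, zygote and 2-cell libraries and brighten from the 4-cell stage, with Uqcrc2, Cox6b2, Cox8a and Atp5b among the rows that stay bright in MII oocytes.

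In complex II, 3 of the 4 genes fell from GV to MII. Sdhb, the iron-sulfur subunit, had 111, 109.6, 105 and 95.8 CPM in the 4 GV libraries and 5.78, 6.69, 2.30 and 4.70 in the MII libraries, a change of -4.25 (SE 0.20, limma adjusted p 7e-20). Sdhd, a membrane anchor, went from 395, 381, 394 and 401 CPM to 19.5, 28.9, 17.8 and 17.7 (change -4.19, SE 0.19, limma adjusted p 3e-20), and Sdhc, the other anchor, changed by -2.49. The libraries of these stages were far apart for each of the 3. Sdha, the flavoprotein that binds succinate, had 69.2, 69.0, 66.7 and 80.4 CPM in GV and 111, 85.2, 103 and 97.6 in MII libraries. All MII values lay above the GV values, but the change of 0.47 (SE 0.18) was under the size needed for a call.

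Complex II was also the complex with the lowest median change from 2-cell to 4-cell, 0.23, where Sdhb (2.07) and Sdhd (1.24) rose and Sdha (-0.93) and Sdhc (-0.78) were not called. Sdhb reached 336, 314, 401 and 317 CPM in the blastocyst libraries, above all earlier stages. Its change from morula to blastocyst, 1.02, was called, and was 0.94 without replicate A, 1.00 without B and 0.98 without C, which missed the call. Its rise from MII to zygote (1.37) was 1.00 without replicate C, also below the call, and Sdhc rose by 1.45 there and by 1.09 from 8-cell to morula (0.94, not called, without replicate C). Summed over the 4 genes, complex II had 664 ± 13.0 CPM in GV, 141 ± 8.64 in MII, 138 ± 23.6 in 2-cell, 179.7 ± 7.22 in 4-cell and 592 ± 44.9 in blastocyst libraries (SD, n = 4). In blastocysts the summed level was thus near that in GV, but single genes were not. Sdhb lay above its GV values. Sdhd, with 110.3 CPM in blastocyst replicate A and 66.6 to 72.2 in the others, lay below its own. The sum of complex III went from 1169 ± 89.9 to 4884 ± 637 CPM between these stages.

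In complex III, 8 of its 9 genes fell from GV to MII and all 9 rose from 2-cell to 4-cell, with medians of -2.74 and 3.84. Uqcrq, a small membrane subunit, had the largest fall. Its values were 387, 308, 363 and 302 CPM in GV libraries, 16.8, 22.7, 5.68 and 9.24 in MII, 53.8, 46.4, 71.2 and 70.1 in 2-cell and 847, 1263, 1049 and 1178 in 4-cell libraries. The changes were -4.70 (SE 0.23, limma adjusted p 2.8e-19) from GV to MII and 4.15 (SE 0.23) from 2-cell to 4-cell, and the libraries of neighbouring stages did not overlap at either step. The largest rise at the 4-cell stage was that of Uqcrc1, a core protein facing the matrix, from 2.57, 5.13, 2.45 and 1.99 to 154, 142, 161 and 181 CPM (change 5.37, SE 0.21, limma adjusted p 1.3e-22). Uqcrfs1, the Rieske iron-sulfur protein, fell by 2.62 and rose by 2.62 at these steps.

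Uqcrc2, the partner core protein of Uqcrc1, followed another course. Its values were 241, 227, 214 and 207 CPM in GV, 451, 414, 408 and 382 in MII, 281, 318, 291 and 373 in zygote, 18.2, 24.5, 24.3 and 15.2 in 2-cell and 154, 105, 153 and 139 in 4-cell libraries. It was higher in every MII than in every GV library (change 0.89, SE 0.20, not called) and fell from zygote to 2-cell by 3.89 (SE 0.20, limma adjusted p 1e-18), where 33.9% of all genes were called (25.2% higher and 8.71% lower) and 15 of the 48 were higher and 1 lower. Uqcrc2 was the only one of the 48 called lower there. Cyc1, the haem subunit that hands electrons to cytochrome c, had the largest rise of the 48 at that step. It went from 1.33, 1.19, 0.992 and 0.667 CPM in zygotes to 44.1, 18.9, 18.4 and 24.4 in 2-cell libraries (change 3.67, SE 0.23). Uqcr11 had already lost most of its remaining level from MII to zygote, from 59.3, 63.3, 24.9 and 31.0 to 4.19, 4.27, 4.67 and 4.83 CPM (change -2.95, SE 0.21). That step had 12 of the 48 called higher and 2 lower, Uqcr11 and Uqcrc1 (-1.01, and -0.97 without A and -0.70 without B, not called), where 10.3% of all genes were called (5.79% higher and 4.48% lower).

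Cycs, which carries electrons from complex III to complex IV and also takes part in apoptosis, fell from 370.1, 323, 358 and 334 CPM in GV to 56.1, 54.9, 63.9 and 63.1 in MII libraries (change -2.52, SE 0.12, limma adjusted p 4.3e-19). Its changes were 0.56, 0.67, 0.90 and 0.52 at the next 4 transitions, none of them called, and it had 379.6 ± 52.5 CPM (SD, n = 4) in 8-cell embryos. Cyct, the testis form of cytochrome c, was at 6.78 ± 1.29 CPM in GV, 1.44 ± 0.247 in 2-cell and 15.2 ± 3.83 in blastocyst libraries.

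In complex IV, 10 of 17 genes fell from GV to MII and 1 rose, and its median change (-1.55) was the smallest of the complexes. Cox4i1, the widely expressed form of subunit IV, had 356, 276, 306 and 268 CPM in GV and 6.57, 10.0, 6.19 and 5.81 in MII libraries (change -5.23, SE 0.16, limma adjusted p 5.3e-25). Cox7c, a small membrane subunit, went from 74.2, 72.2, 73.5 and 73.0 to 1.66, 4.24, 0.375 and 1.06 CPM (change -4.89, SE 0.24), and from 6.35, 14.4, 10.5 and 10.5 in 2-cell to 341, 342, 388 and 331 CPM in 4-cell libraries (4.99, the largest rise of the complex). Both genes were lower in every MII than in every GV library. Cox8a, the common form of subunit VIII, had 157, 138, 152 and 134 CPM in GV and 315, 249, 308 and 273 in MII libraries (change 0.97, SE 0.12, not called). Cox6c (-0.61) and Cox6b1 (-0.85) were not called either, and Cox5a (1.71) had the largest rise of the complex from MII to zygote.

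Complex V had the largest median fall from GV to MII, -3.49, with 15 of 17 genes called lower. Atp5j2, which encodes the membrane subunit f, had the largest fall of the 48, from 278, 229, 253 and 221 to 3.59, 3.46, 2.39 and 2.01 CPM (change -6.01, SE 0.19, limma adjusted p 6.8e-25). Atp5o, the stalk subunit that confers oligomycin sensitivity, fell by 5.21. Atp5b, the catalytic beta subunit, did not fall: it had 337, 376, 306 and 383 CPM in GV and 633, 528, 613 and 516 in MII libraries (change 0.71, SE 0.13, not called). Atp5a1, the alpha subunit that pairs with it in the catalytic head, had 197, 214, 192 and 225 CPM in GV and 30.4 ± 6.16 (SD, n = 4) in MII libraries, a fall of 2.75. The MII libraries therefore lay above the GV libraries for beta and below them for alpha. From 2-cell to 4-cell 16 of the 17 rose, by 5.64 (SE 0.19) at most, for Atp5k, subunit e, which went from 4.75, 5.59, 4.57 and 3.61 to 232, 337, 271 and 276 CPM.

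Between consecutive stages after the 4-cell stage, few of the 48 were called. From 4-cell to 8-cell limma called 0, where 2.6% of all genes were called (0.451% higher and 2.14% lower), with 19 at an unadjusted p under 0.05 and 1 called by edgeR on whole reads. From 8-cell to morula 2 were called higher (Cox7b2 and Sdhc) and 1 lower (Cox4i2, change -1.05, with values of at most a few CPM), where 11.9% were called (8.18% higher and 3.7% lower). At an unadjusted p under 0.05 there were 20 at this step and 29 at the next. Cox4i2 was not called without replicate A (-0.86) or D (-0.95). From morula to blastocyst 5 were called higher and 1 lower, where 26.8% of all genes were called (18.8% higher and 7.97% lower). With edgeR on whole reads 3 were called higher and 4 lower, and with quantile scaling 11 higher and 2 lower. The 5 were Cyc1 (1.52), Atp5g2 (1.28), Cox6a1 (1.25), Uqcrc1 (1.14) and Sdhb, and Cox7b2 fell by 1.68.

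Several isoform and paralog genes differed in course. Cox6b1 and Cox6b2 encode somatic and testis forms of subunit VIb, and Atp5g1, Atp5g2 and Atp5g3 encode the same mature c subunit of the rotor ring. The 150 bases before their annotated starts are shown because these genes parted at the 2-cell to 4-cell step. They are RefSeq sequences of build GRCm38.p6, all on the minus strand and written 5′ to 3′ with the last base next to the start, at chr7:30626115-30626264 (Cox6b1), chr7:4753095-4753244 (Cox6b2), chr11:96075632-96075781 (Atp5g1), chr15:102671048-102671197 (Atp5g2) and chr2:73911327-73911476 (Atp5g3). Capitals mark a match to the NRF1 motif, bound by nuclear respiratory factor 1, an activator of many respiratory genes.
Cox6b1: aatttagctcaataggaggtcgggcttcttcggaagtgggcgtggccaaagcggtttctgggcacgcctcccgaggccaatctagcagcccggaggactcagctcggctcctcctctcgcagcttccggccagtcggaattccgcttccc
Cox6b2: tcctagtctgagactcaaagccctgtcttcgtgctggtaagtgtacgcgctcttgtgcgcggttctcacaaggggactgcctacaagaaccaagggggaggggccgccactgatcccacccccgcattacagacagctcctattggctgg
Atp5g1: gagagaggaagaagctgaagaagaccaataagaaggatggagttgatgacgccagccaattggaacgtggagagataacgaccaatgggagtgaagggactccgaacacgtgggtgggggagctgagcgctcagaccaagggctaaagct
Atp5g2: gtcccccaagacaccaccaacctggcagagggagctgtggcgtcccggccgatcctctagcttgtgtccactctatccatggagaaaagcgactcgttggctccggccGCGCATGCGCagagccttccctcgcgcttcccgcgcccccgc
Atp5g3: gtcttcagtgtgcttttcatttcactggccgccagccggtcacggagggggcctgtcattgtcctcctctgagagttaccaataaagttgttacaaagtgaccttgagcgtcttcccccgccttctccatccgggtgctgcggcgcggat

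Cox6b2 was the only one of the 48 called higher from GV to MII, and it rose again to the 2-cell stage before falling. Its values were 81.1, 58.0, 74.8 and 54.7 CPM in GV, 153, 139, 126 and 125 in MII, 299, 341, 356 and 293 in 2-cell, 23.2, 28.9, 14.9 and 18.3 in 4-cell and 8.46 ± 2.48 (SD, n = 4) in blastocyst libraries. The changes were 1.02 (SE 0.20) from GV to MII, 1.01 (SE 0.20) from zygote to 2-cell and -3.89 (SE 0.20, limma adjusted p 2.4e-19) from 2-cell to 4-cell. Groups at these steps did not overlap. The rises sat at the size needed for a call: the first was 0.94 without replicate B and 0.97 without D, and the second 0.92 without B and 0.98 without C, all of them below it. Cox6b1 had 78.3, 70.6, 68.9 and 75.1 CPM in 2-cell and 318, 237, 387 and 298 in 4-cell libraries (change 2.05, SE 0.17, limma adjusted p 1.3e-13).

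Other tissue forms of complex IV subunits moved in both directions. Cox6a2, the heart and muscle form of subunit VIa, fell with Cox6b2, from 8.08, 6.44, 7.02 and 5.08 CPM in 2-cell libraries to 0, 0, 0.322 and 0 in 4-cell libraries (change -2.82), while Cox6a1, the common form, rose by 2.27. Cox7a1, the heart and muscle form of subunit VIIa, had 0 reads in all MII and zygote libraries, 2.37, 3.07, 1.95 and 2.58 CPM in 2-cell and 26.2, 18.8, 26.4 and 19.8 in 4-cell libraries. Cox7b2, a testis form, had 0 reads in all zygote libraries and 16.5, 6.31, 14.0 and 6.68 CPM in 4-cell libraries, peaked at 30.3 ± 8.19 in morulae and fell to 8.95 ± 3.39 in blastocysts (SD, n = 4). For genes at 0 the fitted changes depend on the added 1 CPM. Cox7a2 (2.20) and Cox7a2l (1.08), a supercomplex factor, rose at the 4-cell stage. Cox7b rose early, from 10.1, 7.97, 8.00 and 6.06 CPM in zygotes to 52.4, 73.8, 83.5 and 76.4 in 2-cell libraries, a called rise, and then fell to 44.0, 36.5, 29.1 and 25.1. That fall, -1.08, was -0.94 without replicate C and -0.91 without D, below the call. Cox4i2 and Cox8c never passed a mean of 3.99 CPM at any stage.

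The c-ring genes parted by stage. All 3 fell from GV to MII, Atp5g1 the most, from 177, 137, 159 and 129 to 2.94, 3.23, 1.50 and 2.69 CPM (change -5.42, SE 0.19, limma adjusted p 2.7e-23). Atp5g1 then rose at each of the next 3 steps (3.05, 2.36 and 1.94) and had 406, 831, 622 and 516 CPM in 4-cell libraries. Atp5g3 rose mainly at the 4-cell stage, from 41.3, 41.8, 62.2 and 39.0 to 383, 350.1, 405 and 397 CPM (3.05, SE 0.15). Its smaller rise from zygote to 2-cell (1.09) was 0.97 without replicate C, below the call. Atp5g2 was the only gene of complex V not called at the 4-cell stage, with 26.1, 20.6, 20.1 and 18.3 CPM before and 19.9, 38.1, 26.3 and 22.0 after, values that overlapped. It reached 186, 159, 219 and 208 CPM in blastocysts.

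**Figure D2:**
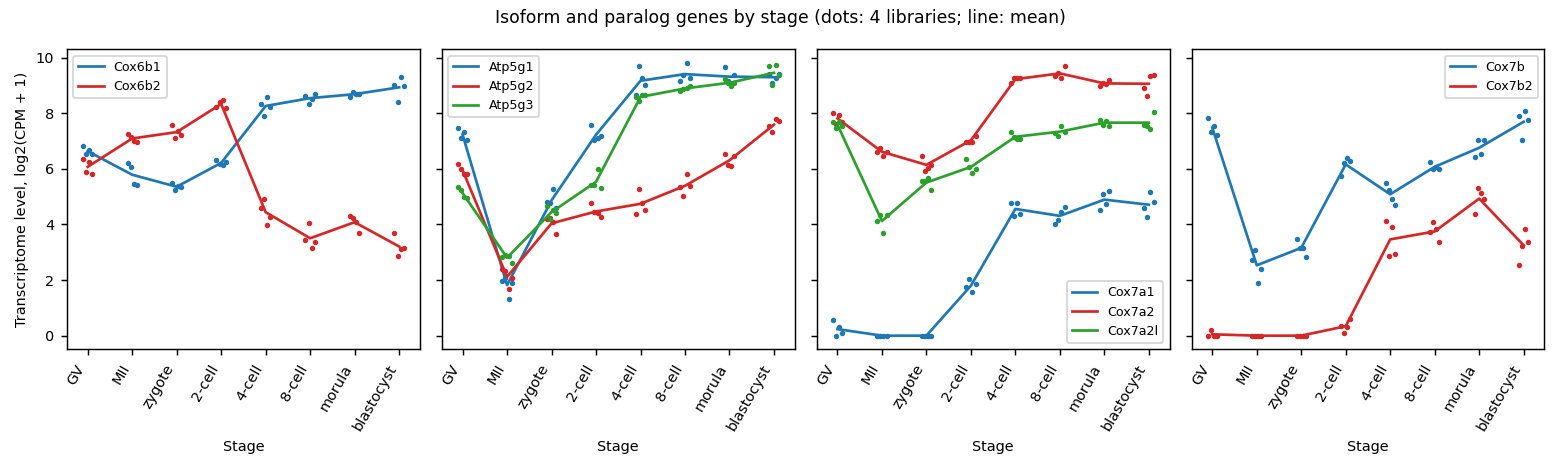
Transcriptome level (log2(CPM + 1), vertical axis) by stage (horizontal axis) for 4 groups of isoform or paralog genes; dots are the 4 libraries of a stage and lines join stage means. Cox6b2 drops to 21.3 CPM at the 4-cell stage while Cox6b1 rises to 310.0, and Atp5g2 stays at 26.6 CPM while Atp5g1 and Atp5g3 reach 594 and 384.

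The promoters of the 48 genes were searched for NRF1 and for the ETS motif CCGGAAGT (bound by GABPA among others), on both strands, over the 250 bases before the start. RefSeq promoters were matched for 36 of the 48. The NRF1 motif was in 6 of the 36 (16.7%), Sdha, Sdhd, Cox6a1, Atp5g2, Atp5h and Atp5k, against 3.86% of all 27025 promoters and 7.62% of the 11662 that belong to genes of the table. The ETS motif was in 3 (8.33%), Uqcr11, Uqcrh and Atp5h, against 2.93% and 5.62%. Matches lay in genes that fell in MII oocytes and in Sdha, which did not, and the search was not set against expression. A match is a string of letters and no evidence of binding.

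The gradients ask in which fractions these transcripts had their higher relative levels. Transcripts with more ribosomes sediment further, and the labels do not name the fractions. Fractions 6 to 10 were taken as heavy and 1 to 5 as light, each side being the mean CPM of its fractions in a gradient (n = 3 per stage). Each fraction is scaled to its own total and counts equally whatever its depth. Heavier, lighter and moved toward a side thus describe relative levels, and no amount of a transcript on a side is read from them. The change of the heavy side beyond that of the transcriptome was tested as an interaction, which uses the same transcriptome libraries as above and is no independent count. From GV to MII, 31 of the 48 genes were called higher in this test and 0 lower, where 8.22% of 15165 genes were called (6.94% higher and 1.27% lower). The median was 2.08, beside 0.02 over all genes. The gradient values show what lay behind it: the transcriptome fell, and neither side of the gradient followed to the same degree. The heavy-light difference had a median change of -0.58, toward the light side, beside -0.14 over all genes. These calls thus set gradients against transcriptomes and not the heavy side against the light side.

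Cox7c gave the largest such value. Its heavy side had 16.9, 33.0 and 32.3 CPM in GV and 106, 50.8 and 86.8 in MII gradients, and its light side 47.4, 42.4 and 23.9, then 399, 199 and 264 CPM. Both sides were higher in every MII gradient while every MII transcriptome was lower, which gave 6.42 (SE 0.51, limma adjusted p 7.1e-13). Atp5h, the stator subunit d, had 131, 114 and 153 CPM on the heavy side in GV and 163, 94.9 and 156 in MII, values that overlapped, against a transcriptome fall of 4.40 (interaction 4.43, SE 0.32, limma adjusted p 3.8e-14). Sdhd had 313, 345 and 319 CPM, then 211, 257 and 206 (3.65, SE 0.72). Cox7b had 38.8, 60.4 and 60.8 CPM, then 45.6, 33.2 and 28.9 (4.40, SE 0.96).

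Other genes did fall on the heavy side. Cox4i1 had 809, 839 and 924 CPM there in GV and 177, 92.3 and 341 in MII gradients, and Uqcrq had 721, 679 and 809.8, then 246, 98.9 and 269 CPM. Their falls were smaller than in the transcriptome, with interaction values of 2.97 (SE 0.36) and 2.73 (SE 0.44). By complex, 3 of 4 genes of complex II, 4 of 9 of complex III, 10 of 17 of complex IV and 14 of 17 of complex V were called. Uqcrc2 rose on both sides, from 70.5, 108 and 111 to 1045, 1113 and 1024 CPM on the heavy side and from 147, 141 and 99.4 to 2036, 1999 and 1733 CPM on the light side. All its MII gradients lay far above its GV gradients, but the interaction of 2.58 (SE 0.91) was not called. Cox6b2 rose on the heavy side from 30.9, 36.1 and 52.8 to 283, 255 and 194 CPM, and its call (1.58) was lost without replicate A (1.26) or B (1.56).

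**Figure D3:**
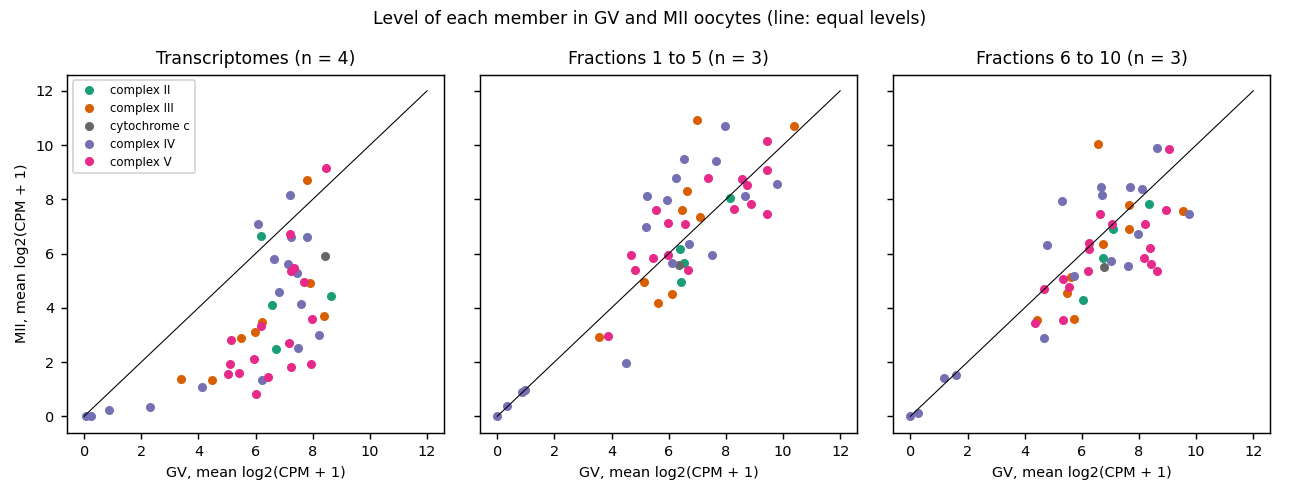
Each point is 1 of the 48 genes, with its GV level on the horizontal and its MII level on the vertical axis (mean log2(CPM + 1)), in transcriptomes, light fractions and heavy fractions; the line marks equal levels. In the left panel 43 of the 48 lie below the line, with a median change of -2.68, while the points of the fraction panels scatter around it.

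From MII to zygote 5 genes were called lower (Cox7c, Uqcrc1, Atp5g3, Atp5o and Atp5h) and 0 higher, where 2.28% of all genes were called (0.93% higher and 1.35% lower), and the count was 11 without replicate B and 3 without A, C or D. Uqcrc1 (-2.32) was -1.60 without A and -2.07 without D, Atp5h (-1.18) was -1.08, -0.78 and -1.18 without A, C and D, and Atp5o (-2.01) was -1.27 without C, none of them called. From zygote to 2-cell 30 were called lower, where 27.5% of all genes were called (1.58% higher and 26.0% lower), with a median of -1.45 beside -0.89 over all genes. Cox7b had the lowest value, -4.95 (SE 0.96), followed by Sdhb with -4.63 (SE 0.61). Sdhb had 25.7, 27.3 and 12.6 CPM on the heavy side in zygotes and 0, 0.0576 and 0 in 2-cell gradients, while its transcriptome held 11.4 to 17.6 and 13.9 to 21.5 CPM. Cox7c (-4.07) and Uqcrc1 (-3.39) were among the 30.

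From 2-cell to 4-cell 4 genes were called higher and 12 lower in this test, where 31.8% of all genes were called (13.8% higher and 18% lower), and the split was 9 higher and 5 lower with edgeR on whole reads. Sdha had 129, 84.6 and 176 CPM on the heavy side in 2-cell gradients and 0.0561, 0 and 0.0504 in 4-cell gradients, which gave -5.98 (SE 0.67), although its 4-cell transcriptomes held 27.1 to 41.5 CPM. In the 4-cell fractions Sdha passed 1 CPM only in fraction 1 of gradient C (106 CPM). Uqcrc1 went the other way, from 0.0227, 0 and 0 to 668, 566 and 472 CPM (3.76, SE 0.53). Sdhc (1.22, and 0.74 without replicate A, not called), Uqcrb (1.70) and Cox6b2 (1.93) were the other 3 called higher, and Atp5a1 (-3.47, SE 0.35) had the lowest value of complex V. From 4-cell to 8-cell 7 were called higher and 0 lower, where 13.7% of all genes were called (12% higher and 1.77% lower), among them Uqcrc2 (2.78), Atp5pb (2.54) and Sdhd (2.53). Uqcrc2 was 1.92 without replicate A, 1.64 without B and 2.78 without D, Sdhd 0.86 without A and 2.44 without D, and Atp5pb 2.05 without B, none of them called. The count was 2 without A or D, the split turned to 2 higher and 7 lower with edgeR, and 0 were called when only the groups compared entered the fit. From 8-cell to morula Atp5c1 was called higher (1.12, and 0.99, 1.16 and 1.11 without A, B and D, not called) and Cox6b2 lower (-2.26), where 6.45% were called (3.97% higher and 2.48% lower), and from morula to blastocyst Cox6a1 (-1.59, and -1.58 without B, not called) and Cox8a (-1.37) were called lower, where 2.2% were called (0.468% higher and 1.73% lower). Where 8-cell to morula was fitted with the replicate letter as a block, 1 gene was called lower and 0 higher.

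Within a stage, heavy and light sides were compared directly, again with the spread of a gene taken over the gradients of all stages. In GV oocytes only Cox6a1 was called (heavier, 1.45, and not called without A (1.42), B (1.58) or C (1.34)), where 0.0725% of 15172 genes were called (0.0461% heavier and 0.0264% lighter). In MII oocytes 12 of the 48 were called lighter and 0 heavier, where 3.23% of all genes were called (1.71% heavier and 1.52% lighter). In zygotes 6 were called lighter and 0 heavier, where 3.01% were called (2.14% heavier and 0.87% lighter), and the count was 3, 2 and 4 without replicate A, B or C and 1 with edgeR. In MII oocytes these calls came with fraction 1. In zygotes 3 were called with fractions 2 to 5 as the light side, 2 of them heavier. The summed level of complex IV was 22455, 15840.0 and 18958 CPM in fraction 1 of the 3 MII gradients and had its lowest mean, 944 CPM, in fraction 3. In 2-cell fraction 1 it was 17359.9, 14394 and 16148 CPM, and the complex V sum in zygote fraction 1 was 15001, 15132 and 16301 CPM. Such sums follow the members with the highest CPM. In 2-cell fraction 1 Cox8a alone held 11189, 9844 and 10572 CPM, and Cox6b2 3606, 2039.6 and 2489. Cox7a2 was also higher in fraction 1 than in fraction 2 (means of 564 and 173 CPM), but Cox4i1 was not (15.6 and 42.3). The mean of fraction 1 was 11.9 times that of fractions 2 to 5 for complex IV in MII oocytes, 3.90 times for complex III, 4.07 times for complex V and 0.668 times for complex II.

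Uqcrq and Atp5g1 show the pattern in MII oocytes. Uqcrq had 11036, 4631 and 8511 CPM in fraction 1 of the gradients, 35.1, 32.9 and 134 in fraction 4 and 546, 86.5 and 194 in fraction 10. Its difference was -3.16 (SE 0.36, limma adjusted p 2e-07) and became -0.06 with fractions 2 to 5 as the light side. Atp5g1 had 3134, 1448 and 2738 CPM in fraction 1 and 11.1, 26.6 and 62.6 in fraction 4, with a difference of -2.87 (SE 0.35) that became -0.25. Fraction 1 was the high value in each gradient for both genes. With fractions 2 to 5 as the light side, 5 of the 48 were called in MII oocytes, all heavier, and 0 of them were among the 12. Leaving out replicate A, B or C gave counts of 8, 4 and 6, and edgeR 3. The other 10 called lighter in MII oocytes were Cox5b, Cox6b1, Cox7a2, Cox7c, Atp5e, Atp5g2, Atp5h, Atp5j2, Atp5k and Atp5o. Uqcrc2 lay elsewhere, with 182, 124 and 181 CPM in fraction 1 and 3837, 3117 and 2631 in fraction 4.

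**Figure D4:**
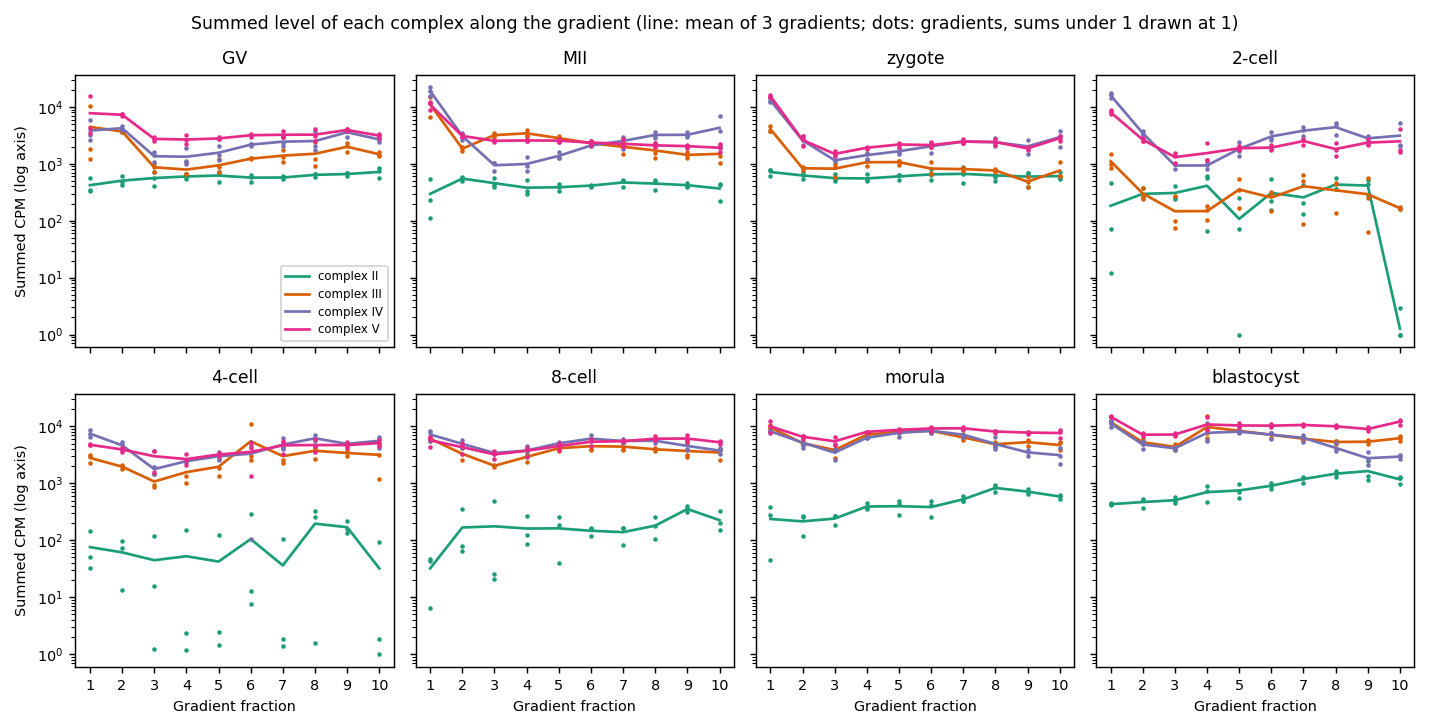
Summed CPM of the genes of each complex (log axis) along gradient fractions 1 to 10 at each stage. Lines are means of 3 gradients, dots the gradients, and sums under 1 are drawn at 1. Sums follow the members with the highest CPM, such as Cox8a with a mean of 10535 CPM in 2-cell fraction 1. Fraction 1 stands out for complexes III to V in MII oocytes, zygotes and 2-cell embryos (for complex IV 11.9, 7.67 and 8.91 times the mean of fractions 2 to 5), and in blastocysts complex IV declines from 8112 CPM in fraction 5 to 2770.3 in fraction 9 while complex II has means of 1481 in fraction 8 and 1645 in fraction 9, the latter raised by gradient C (2441, against 1348 and 1145 in A and B).

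The change of the heavy-light difference between consecutive stages was tested in the same fit. From GV to MII 3 genes moved toward the light side (Uqcrq -2.29, Cox6a1 -1.79 and Cox8a -1.49), where 0.185% of 15172 genes were called (0.0725% toward the heavy and 0.112% toward the light side), and 7 did with the gradient as a block. None of the 3 was called when any replicate was left out, and with fractions 2 to 5 as the light side the values were 0.43, -0.50 and -0.07. From MII to zygote limma called 0, where 0.0198% of all genes were called (0.0% toward the heavy and 0.0198% toward the light side), with 5 of the 48 at an unadjusted p under 0.05 and 0 by edgeR. From zygote to 2-cell Cyc1 (4.55) and Uqcrq (2.09) moved toward the heavy side, where 4.65% were called (1.73% toward the heavy and 2.91% toward the light side), and 4 did with the block. Cyc1 rested on few fractions. Its 2-cell gradients had 22.8, 153 and 121 CPM in fraction 8, 272, 32.8 and 0 in fraction 9 and 0 in all gradients in fractions 3, 7 and 10, and the call was lost without replicate B (3.98) or C (4.88). That of Uqcrq was lost without A (2.14) or C (2.14).

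From 2-cell to 4-cell 8 genes moved toward the heavy side and 0 toward the light side, where 11.7% of all genes were called (4.52% toward the heavy and 7.22% toward the light side). They were Uqcrc1 (4.93), Uqcr10 (3.35), Atp5g2 (3.24), Cox7a2l (3.16, and 1.50 without replicate B and 3.36 without C, not called), Atp5e (2.30, and 1.98 without B and 2.32 without C, not called), Atp5j2 (2.09), Cox6b1 (1.79, and 1.46 without B, not called) and Uqcrh (1.50, and 0.99 without C, not called). Atp5g2 had 167, 149.5 and 126 CPM on the heavy and 1097, 734 and 980.5 on the light side in 2-cell gradients, and 75.7, 23.1 and 62.9 against 44.8, 24.9 and 28.1 in 4-cell gradients (SE 0.53, limma adjusted p 7.5e-05). Light lay above heavy in all 3 gradients of 2-cell embryos and in gradient B alone of 4-cell embryos. Uqcr10 had 2339, 487 and 249 CPM on the heavy side in 4-cell gradients, and fraction 6 of gradient A alone held 10740.3 CPM. That library was shallow, with 0.996 M reads against 12.5 and 14.4 M in B and C, and it was unlike them for other members too. In the same fraction Cox8a had 22.7, 2266 and 1757 CPM in gradients A, B and C, and Atp5b 19.2, 1888 and 1966. The library enters the heavy side of gradient A in every 4-cell comparison of the gradients. With fractions 2 to 5 as the light side the count was 3 toward the heavy and 1 toward the light side, and it was 0 when only the groups compared entered the fit. Some member values in single fractions were 0 where the other gradients of the stage both held 100 CPM or more (fractions 2 to 10). These were 2 of 198 such values in 2-cell and 3 of 425 in 4-cell embryos, and 0 at other stages. Values just above 0 were not counted, and detection was uneven for many genes. In 2-cell gradients Sdha had 281, 0.345 and 517 CPM in fraction 4 and 312, 1.21 and 0 in fraction 7. In 4-cell gradients Cyc1 had 831, 0.312 and 1.09 CPM in fraction 4. Cox8a was steadier, with 506, 409 and 447 CPM in 2-cell fraction 3. Single-gene gradient values of these stages can thus rest on few libraries.

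Within the 2-cell stage 10 of the 48 were called lighter and 3 heavier (Cyc1 3.31, Cycs 1.93 and Atp5b 1.19), where 18.2% of all genes were called (6.43% heavier and 11.8% lighter). The split turned to 8 heavier and 4 lighter with edgeR on whole reads, and to 6 heavier and 3 lighter with fractions 2 to 5 as the light side. Uqcrc2 had 0.210, 32.2 and 10.5 CPM on the heavy and 25.7, 122 and 70.9 on the light side, the largest difference toward the light side, which was not called without replicate A (-2.26). The next largest were those of Atp5g2 (-2.65), Sdhb (-2.52, and -1.87 without A and -1.90 without C, not called), Uqcrc1 (-2.50, and -2.87 without B and -0.86 without C, not called) and Cox6a2 (-2.35, and -1.18 without A and -2.01 without B, not called). Cyc1 was 2.48 without B, and Cycs 1.15 without B and 1.48 without C, none of them called. Within the 4-cell stage 7 were called heavier and 0 lighter, where 16.3% were called (3.4% heavier and 12.9% lighter). When only the groups compared entered the fit, 0 were called at this stage, in 2-cell and in 8-cell embryos. Cox4i1 had 586, 716 and 687 CPM on the heavy and 268, 108 and 221 on the light side (1.82, SE 0.33, limma adjusted p 0.00014), with heavy above light in every gradient. Cox7a2l (2.47), Uqcrc1 (2.43), Sdhc (1.85), Uqcrb (1.77), Atp5h (1.68) and Atp5g3 (1.52) were the others. Without replicate B the count was 1, and Cox7a2l was 0.80, Uqcrc1 2.32, Sdhc 1.76, Uqcrb 1.43, Atp5h 0.83 and Atp5g3 1.16, not called. Without A it was 12 (Sdhc 1.36, not called) and without C 5 (Atp5h 1.92 and Atp5g3 1.04, not called). In 8-cell embryos Cox4i1 was heavier (1.10) and Cox6b2 lighter (-1.47), where 9.05% were called (2.43% heavier and 6.62% lighter), and in morulae Cox4i1 was heavier (1.13), where 5.81% were called (1.64% heavier and 4.17% lighter). With the gradient as a block 3 were called in morulae, 1 heavier and 2 lighter, with quantile scaling 5, all lighter, and with edgeR 0. Each of these calls was lost without replicate A (Cox4i1 0.96 and 1.13, Cox6b2 -1.38) and without C (Cox4i1 1.08 and 1.01, Cox6b2 -1.44), and that of Cox6b2 also without B (-1.60).

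In blastocysts 7 genes were called lighter and 0 heavier, where 2.74% of all genes were called (0.633% heavier and 2.11% lighter). They were Uqcr10 (-2.18), Atp5md (-2.17), Atp5k (-1.78), Atp5mpl (-1.53), Cox6a1 (-1.30), Cox7a2 (-1.10) and Atp5j2 (-1.10). Atp5md had 158, 116 and 159.9 CPM on the heavy and 860.2, 623 and 506 on the light side, with no overlap. The count was 3, 0 and 2 without replicate A, B or C, and 0 with edgeR. Atp5md was not called without A (-2.04) or B (-2.05). Nor, without B, were Uqcr10 (-2.07), Atp5k (-1.79), Atp5mpl (-1.45), Cox6a1 (-1.24), Cox7a2 (-1.11) and Atp5j2 (-1.02). Without A the calls of Atp5k (-1.53), Cox7a2 (-1.05) and Atp5j2 (-1.04) were lost, and without C those of Atp5k (-2.01), Atp5mpl (-1.63), Cox6a1 (-1.37), Cox7a2 (-1.13) and Atp5j2 (-1.26). The change of the difference from morula to blastocyst was called for 0 of the 48 by limma and by edgeR, with 0 at an unadjusted p under 0.05, where 0.0198% of all genes were called (0.00659% toward the heavy and 0.0132% toward the light side). From 4-cell to 8-cell and from 8-cell to morula it was also called for 0 (2.47% of all genes, 1.98% toward the heavy and 0.488% toward the light side, and 0.534%, 0.415% and 0.119%), with 4 and 3 at an unadjusted p under 0.05 and 1 each by edgeR.

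Of the 7 members called lighter in blastocysts 6 have a coding length here, from 174 (Atp5mpl) to 336 bases (Cox6a1), and position in the late gradients went with coding length. Coding lengths of 46 of the 48 ran from 156 to 1992 bases, with a median of 333 beside 1377 over all genes with a length. Across the 46 genes, Spearman's rho between coding length and the heavy-light difference was 0.70 in morulae and 0.85 in blastocysts, and from -0.19 to 0.22 at the other stages. In blastocysts the 19 genes of up to 300 bases had a median difference of -1.10 and 0 of them were positive. The 17 genes of 300 to 600 bases had a median of 0.09, and the 10 longer ones 1.12, with 9 positive. With fractions 2 to 5 as the light side rho was 0.64 and 0.83 in morulae and blastocysts but -0.63 in MII oocytes and -0.59 in zygotes, where its sign turned with fraction 1, and -0.49 in GV oocytes. All points share the same libraries, and genes are not independent replicates.

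Single profiles show the spread. Sdhb (846 coding bases) had 211, 167 and 225 CPM in fraction 1 of the blastocyst gradients and 671, 698 and 599 in fraction 8. Atp5b rose further, from 936, 825 and 766 CPM in fraction 1 to 4013, 5612 and 5253 in fraction 10. Atp5k (213 coding bases) instead had 362, 295 and 387 CPM in fraction 5 and 98.5, 62.9 and 73.7 in fraction 8. In all 3 gradients the later fraction was the higher for Sdhb and Atp5b and the lower for Atp5k. Other genes with at least 20 CPM followed the same order up to 2000 bases in blastocysts, with medians of -0.92 (147 genes of up to 300 bases), -0.02 (812 of 300 to 600) and 0.51 (2774 of 600 to 2000), and then -0.28 for 581 longer ones. Over all lengths rho for these other genes was only 0.07 in blastocysts and -0.07 in morulae. Their morula medians, in the same order of length, were -0.40, 0.30, 0.65 and -0.36.

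**Figure D5:**
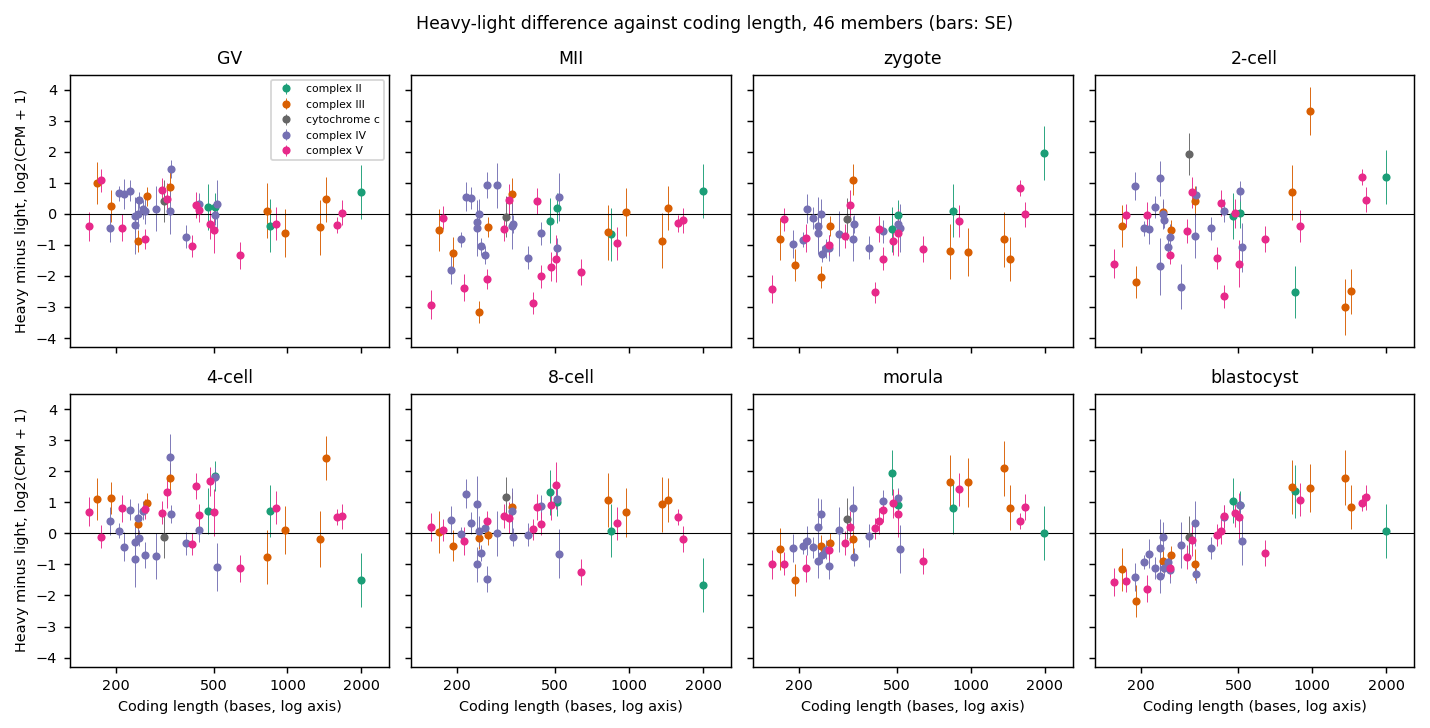
Heavy-light difference in log2(CPM + 1) (vertical axis, bars are SE) against coding length in bases (log axis) for the 46 members with a length, by stage and coloured by complex. The points form a rising band in morulae (rho 0.70) and blastocysts (rho 0.85) and none in GV oocytes (rho -0.19).

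The partners of these subunits gave 4 further lists. Of 41 complex I subunit genes 40 were tested, and 33 were called lower and 1 higher from GV to MII (median -3.35), and 36 higher and 0 lower from 2-cell to 4-cell (2.43). Of 42 assembly factors 35 were tested, with 20 lower from GV to MII (-1.17) and 19 higher and 4 lower from 2-cell to 4-cell (1.22). Of all genes, 9.11% were called higher and 25.3% lower from GV to MII, and 31.8% higher and 32.9% lower from 2-cell to 4-cell. Of the 6 mitochondrially encoded subunits of complexes III to V, all 6 rose from MII to zygote (median 1.68) and from zygote to 2-cell (1.78), and all 6 fell from 2-cell to 4-cell (-2.58), where 38 of the 48 nuclear genes rose. From MII to zygote 5.79% of all genes were called higher, and from zygote to 2-cell 25.2%. COX1, the catalytic core of complex IV, had 1870.0, 1418, 2823 and 2225 CPM in zygotes, 4467, 6904, 6842 and 7562 in 2-cell and 2406, 1798, 4628 and 3370.1 in 4-cell libraries, where only 4-cell replicate C reached the lowest 2-cell value. The labels name poly(A) RNA as the molecule, so these are levels of captured mitochondrial RNA. In blastocyst gradients 5 of the 6 were called lighter, where 2.11% of all genes were. COX1 had 805, 307 and 547 CPM on the heavy and 9436, 5655 and 9626 on the light side. Mitochondrial ribosomes translate the 6 genes, and their position among the cytosolic ribosomes of the gradient has no direct counterpart in the nuclear genes.

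Of 9 nuclear regulators of respiratory genes 8 were tested. Gabpa, the DNA-binding subunit of GABP, had 0.0986, 0.379, 0 and 0.111 CPM in zygotes and 243, 266, 342 and 245 in 2-cell libraries, and was at 259 ± 46.2 CPM (SD, n = 4) in 4-cell embryos. Nrf1, which encodes NRF1, fell from GV to MII (-1.38) and rose from 2-cell to 4-cell (1.48), and Tfam, which maintains mitochondrial DNA, went from 6.44 ± 1.85 to 53.5 ± 10.7 CPM at the 4-cell stage (2.89). Pprc1 (3.87), Esrra (2.31) and Yy1 (1.58) also rose from 2-cell to 4-cell and Gabpb1 fell (-1.93). Of the 8, 5 were called higher and 1 lower at that step, where 31.8% of all genes were called higher and 32.9% lower.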

How the data were processed

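Members and lists were chosen with earlier results of these data known. Per the submitters' processing notes, the authors used Trim Galore 0.6.7, FastQC, HISAT2 2.2.1, featureCounts 2.0.1 and edgeR with build GRCm39. The authors deposited CPM values, and 9 of the deposited columns, among those whose sums pass the CPM total because rows repeat, are entered as signal. Symbols with identical values (76 sets) were collapsed, leaving 15771 genes. In 271 of 272 libraries 100.0% of values came out as whole reads at a tolerance of 0.05 read, and the other was left out of the edgeR fit. limma 3.58.1 in R 4.3.3 was run on log2(CPM + 1), with its trend option, on genes reaching 1 CPM in at least the size of the smallest group, and p-values were adjusted over all genes by Benjamini-Hochberg. The rule named the Sdh genes, Cycs, Cyc1, Uqcrfs1, isoform groups, the c-ring, alpha and beta genes, the largest called rise and fall per complex and contrast, and members called against their complex; other genes were named after their values were seen. Heavy and light sides of a gradient share its lysate (correlation of their deviations 0.0078 to 0.253), while transcriptome letters share only a letter. Alternatives were pseudocount, filter, quantile scaling, CPM without 18S and mitochondrial genes, only the groups compared, each replicate left out, edgeR 4.0.16 on whole reads, a replicate block and other fraction borders. Promoters are RefSeq sequences of GRCm38.p6. The limma and edgeR code was also run on simulated reads with known changes. Those reads were drawn for each side as a whole and not for each fraction, so the means over separately scaled fractions were not checked by it.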

Additional observations from a re-analysis of the deposited data

Results flagged for a closer look

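Of 217 groups of 4 transcriptome libraries tested, 18 had a library standing apart by Dixon's criterion, where chance gives about 1 in 20. Letters E to H are those of the 2-cell columns and match no sample's letter. Summed complex II was 173 CPM in 2-cell replicate E (others 124 to 127), and summed complex III 2109 CPM in 4-cell replicate A (2455 to 2518). Atp5b was 549 CPM in 2-cell replicate E (301 to 326), 836 in 8-cell replicate A (711 to 730.2) and 873 in morula replicate A (945 to 955). Atp5g3 was 62.2 CPM in 2-cell replicate G (39.0 to 41.8), and Cox4i2 2.12 in the same library (0.295 to 0.385). Cox6a2 was 13.5 CPM in GV replicate B (all others at least 17.3) and 4.09 in zygote replicate C (2.61 to 2.76). Cox7a2 was 144 CPM in 2-cell replicate H (124 to 125) and 547 in 4-cell replicate A (611 to 619). Cox8c was 5.82 CPM in GV replicate B (3.26 to 3.59), 6 in 4-cell replicate C (1.47 to 2.06) and 4.50 in 8-cell replicate D (0.996 to 1.47). Sdhb was 21.5 CPM in 2-cell replicate E (13.9 to 14.9) and Sdhc 86.6 in GV replicate B (96.8 to 98.3). Sdhd was 28.9 CPM in MII replicate B (17.7 to 19.5) and 110.3 in blastocyst replicate A (66.6 to 72.2).

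By the interaction test in the fit of all stages, the heavy-light difference was called as changed between stages for 13 results. From GV to MII these were Uqcrq (-2.29), Cox6a1 (-1.79) and Cox8a (-1.49), and from zygote to 2-cell Cyc1 (4.55) and Uqcrq (2.09). From 2-cell to 4-cell they were Uqcrc1 (4.93), Uqcr10 (3.35), Atp5g2 (3.24), Cox7a2l (3.16), Atp5e (2.30), Atp5j2 (2.09), Cox6b1 (1.79) and Uqcrh (1.50).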

How the results depend on the processing

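Counts of members called are given here where an alternative moved them over 1.5 times, and the cause was not tested. In transcriptomes the 4-cell to 8-cell count was 1 with pseudocount 0.25, quantile scaling or edgeR, and the morula to blastocyst count 13 with quantile scaling (11 higher) and 7 with edgeR (3 higher and 4 lower). Heavy against light with only the groups compared gave 0 in GV, 2-cell, 4-cell and 8-cell stages, 13 in zygotes, 8 in morulae and 19 in blastocysts. With edgeR it gave 2 in GV, 3 in MII, 1 in zygote, 12 in 2-cell (8 heavier and 4 lighter), 16 in 4-cell stages (15 heavier) and 0 in morulae and blastocysts. With fractions 2 to 5 as the light side it gave 4 in GV, 5 in MII (all heavier), 3 in zygote (2 heavier), 9 in 2-cell (6 heavier), 11 in 4-cell and 1 in blastocyst stages, and with fractions 8 to 10 as the heavy side 7 in MII, 15 in morula (13 lighter) and 15 in blastocyst stages (14 lighter). Quantile scaling gave 5 in morulae and 12 in blastocysts, all lighter. The replicate block gave 3 in morulae (2 lighter).

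For the change of the heavy-light difference, GV to MII gave 1 without the filter, 7 with the replicate block and 0 with only the groups compared, edgeR, fractions 2 to 5 or fractions 8 to 10. MII to zygote gave 1 with only the groups compared. Zygote to 2-cell gave 0 with only the groups compared, 8 with edgeR, 4 with the replicate block and 1 with either border. 2-cell to 4-cell gave 0 with only the groups compared and 4 with fractions 2 to 5, and edgeR gave 1 at 4-cell to 8-cell and 1 at 8-cell to morula. For the heavy side beyond the transcriptome, quantile scaling gave 9 at MII to zygote, 18 at zygote to 2-cell and 3 at 4-cell to 8-cell. edgeR gave 3 at MII to zygote, 14 at 2-cell to 4-cell (9 higher and 5 lower), 9 at 4-cell to 8-cell (2 higher and 7 lower), 1 at 8-cell to morula and 0 at morula to blastocyst. Only the groups compared gave 5 at 2-cell to 4-cell, 0 at 4-cell to 8-cell, 4 at 8-cell to morula and 4 at morula to blastocyst, and the replicate block gave 1 at 8-cell to morula. In transcriptomes the block left GV to MII at 38.

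Leaving out a replicate, transcriptome counts ran over 37 to 38, 13 to 16, 15 to 17, 39 to 42, 0 to 1, 2 to 4 and 5 to 10 in order of transition. Heavy against light ran over 0 to 0, 4 to 8, 2 to 4, 8 to 9, 1 to 12, 0 to 1, 0 to 1 and 0 to 3 in order of stage. Its change ran over 0 to 0, 0 to 0, 1 to 3 (without C 1, toward the light side), 6 to 9, 0 to 1, 0 to 0 and 0 to 0, and the heavy side beyond the transcriptome over 26 to 28, 3 to 11, 22 to 26, 14 to 16, 2 to 5, 1 to 2 and 1 to 2. Of 3055 values of single genes recomputed, 2591 kept their call, 443 lost it and 21 reversed. With fractions 2 to 5 as the light side, the MII differences were 0.41 for Atp5e, 0.58 for Cox6b1, 0.98 for Cox7a2, 0.68 for Cox7c, 0.21 for Atp5j2, 0.34 for Atp5k and 0.06 for Cox5b, the zygote ones 0.06 for Atp5g2, 0.44 for Cox6b1, 0.61 for Cox7a2 and 0.29 for Uqcrq and 0.79 for Atp5e, the 2-cell ones 0.08 for Atp5g1, 0.88 for Atp5e and 0.52 for Uqcr10, and the change of Uqcrq from GV to MII 0.43. With edgeR, Cox7b2 beyond the transcriptome was 4.98 from 2-cell to 4-cell, and the 2-cell differences were 0.39 for Atp5e and 0.11 for Uqcr10. With quantile scaling, Atp5l and Uqcrb beyond the transcriptome were 0.03 and 0.04 from zygote to 2-cell. Shallow fraction 1 libraries limit low genes there, most of all in GV gradients A and B. Fraction 6 of 4-cell gradient A was shallow too.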
